A study of Mus musculus with 4 samples.

Results

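The RNA content of a library labelled IgG was compared with that of control islets, 2 of the 4 libraries of a mouse pancreatic islet series, to describe which tissues' genes the IgG library held. The 2 libraries were chosen by their labels: control islets by the genotype given for that sample, and IgG by the sample title, where IgG is the usual non-specific antibody control of an RNA immunoprecipitation. All 4 samples are labelled as islet tissue of the C57BL/6 strain. The control islets carry the genotype control and the IgG sample the genotype WT, and the sources used here give no age, sex or treatment of the animals. The other libraries, given as values only, are an IMP2 RIP from WT islets, which is RNA recovered with an antibody to the RNA-binding protein IMP2, and a library labelled Rip2;IMP2, the genotype the series calls its knockout. For all 4 samples the labels describe flash-frozen islets and Trizol extraction, without a separate step for the immunoprecipitated samples and without saying whether animals were pooled. Each group has 1 library, so no test between conditions was possible, no p-value is given and no difference has a replicate check.

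The label of the IgG sample went against its RNA. The defining markers of islet endocrine cells lay far below their level in control islets, while those of brown fat were among its most abundant genes. Ins1 and Ins2, the insulin genes, summed to 298747 CPM (the count of a gene scaled to a fixed total) in control islets and 931 in the IgG library. The brown fat gene Ucp1 stood at 0.190 and 4121 CPM in the same order. The library is called the IgG library below by its label alone, and which tissue it was made from was not tested further than by marker genes. These are bulk libraries, in which fewer cells of a type and less RNA per cell cannot be told apart.

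Brown fat is a heat-producing tissue whose adipocytes are packed with mitochondria. In them the uncoupling protein UCP1 lets protons back across the inner mitochondrial membrane without making ATP, so that fatty acid oxidation is released as heat, and noradrenaline acting on the beta-3 adrenergic receptor switches this on. Pancreatic islets are clusters of endocrine cells that make insulin, glucagon, somatostatin and pancreatic polypeptide, and hepatocytes, skeletal muscle and red blood cells each have marker genes of their own.

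The promoters of 4 genes are printed to show what lies upstream of a marker of each of the programs that separated the libraries: Ucp1 for brown fat, Alb and Afp for liver, and Ins1 for islets. Each is the 250 bases before the gene's start in RefSeq (GRCm38.p6), read 5′ to 3′ on the plus strand, from chr8:83290098-83290347, chr5:90460620-90460869, chr5:90490464-90490713 and chr19:52264047-52264296 in that order. Capitals mark TTGCGCA in Ucp1, GTTAAT in Alb and Afp, and GCCATCTG in Ins1.
Ucp1 promoter: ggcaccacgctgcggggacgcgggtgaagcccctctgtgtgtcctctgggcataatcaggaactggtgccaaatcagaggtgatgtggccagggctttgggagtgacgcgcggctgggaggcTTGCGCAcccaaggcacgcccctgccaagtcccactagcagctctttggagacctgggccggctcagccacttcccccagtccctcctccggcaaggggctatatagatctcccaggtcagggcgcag
Alb promoter: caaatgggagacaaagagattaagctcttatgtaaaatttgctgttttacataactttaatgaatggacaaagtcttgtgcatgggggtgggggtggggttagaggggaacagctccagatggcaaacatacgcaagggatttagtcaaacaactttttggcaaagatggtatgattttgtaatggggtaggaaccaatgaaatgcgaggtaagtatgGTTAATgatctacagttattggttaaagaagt
Afp promoter: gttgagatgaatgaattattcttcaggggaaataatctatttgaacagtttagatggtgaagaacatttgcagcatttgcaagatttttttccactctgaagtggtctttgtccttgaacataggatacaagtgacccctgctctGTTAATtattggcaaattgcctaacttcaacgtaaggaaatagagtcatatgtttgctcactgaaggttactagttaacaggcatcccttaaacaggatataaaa
Ins1 promoter: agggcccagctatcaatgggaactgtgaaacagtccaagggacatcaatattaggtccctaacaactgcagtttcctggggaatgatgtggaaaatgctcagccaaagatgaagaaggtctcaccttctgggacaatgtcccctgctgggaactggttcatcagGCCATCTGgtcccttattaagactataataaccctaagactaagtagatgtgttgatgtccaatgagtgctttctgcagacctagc
TTGCGCA is a C/EBP-type element, GTTAAT is a half-site of the liver factor HNF1, and GCCATCTG is the E box of the insulin promoter. The marked letters begin 128 bases before the start of Ucp1, 32 before Alb, 105 before Afp and 86 before Ins1. On either strand, GTTAAT was found in 10 of 31 promoters of the hepatocyte genes that could be matched (32.3%), against 2113 of 32851 RefSeq promoters of the same length (6.43%). TTGCGCA was found in 1 of 20 promoters of brown adipocyte genes (5.0%) and in 1.69% of all, and GCCATCTG in 1 of 17 promoters of beta cell genes (5.88%) and in 1.11% of all. Both also occurred in other lists: GCCATCTG was found in 2 of 31 hepatocyte promoters (6.45%), and TTGCGCA in 3 of 67 promoters of nuclear OXPHOS genes (4.48%). A match of letters is a description of the sequence and not a binding site. TTGCGCA was chosen after the Ucp1 sequence had been read.

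The control islet library held 26350813 gene counts over 24350 detected genes, and the IgG library 13195732 over 14105. The IMP2 RIP held 6025594 gene counts and the labelled knockout 24275628, so raw counts are not on the same scale between libraries. Entries that name no gene took 50.8% of the deposited total in control islets and 70.5% in the IgG library. The 10 most abundant genes held 18.7% of gene counts in the IgG library and 37.3% in control islets, while the 100 most abundant held 44.1% and 44.7%. A count of 0 allows up to 0.227 CPM with IgG against 0.114 in control islets, taking 3 counts as the limit. In the IgG library a molecule was estimated to give 21 reads, so low counts there may rest on few molecules. The intervals below do not include this.

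Genes with a mean of 1 CPM or more over the pair of libraries counted as measured. A measured gene was called when its ratio of scaled levels was at least 2-fold and the exact 95% interval of that ratio excluded 1. Of 15352 measured genes, 3943 were called higher in the IgG library (25.7%) and 7268 lower (47.3%), 73.0% in either direction. Called genes were thus the common case, and the size of a ratio carries more than the call. The median log2 ratio of IgG over control was -0.79, or -0.80 with genes at 0 set at their bound. Of the measured genes, 580 reached 1 CPM on average through the IgG library while they stood below 1 CPM in control islets, and 4152 did so through control islets alone. The former had to differ in order to be measured, and the same holds for the latter. List medians and call counts below keep both kinds, whose direction in CPM the filter fixed. In the IgG library 2439 measured genes were at 0 counts, and in control islets 76 were.

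The split of the calls depended on the scaling. Under the trimmed mean of M values (TMM), used for all ratios below, 35.2% of called genes were higher and 64.8% lower. Under library totals, 2577 were higher and 9191 lower (21.9% and 78.1%). Under totals without the islet, acinar and fat lists, 2180 were higher and 9904 lower (18.0% and 82.0%). Library totals moved the median of all genes by -0.91 on the log2 scale, totals without those lists by -1.26, DESeq2 size factors by 0.17 and upper-quartile scaling by 0.52. The ratios described below are mostly far larger than these shifts, but several smaller ones are not. Larger changes of calls under these scalings are given beside the gene or list, while changes in a few members of a list are not all printed.

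**Figure D1:**
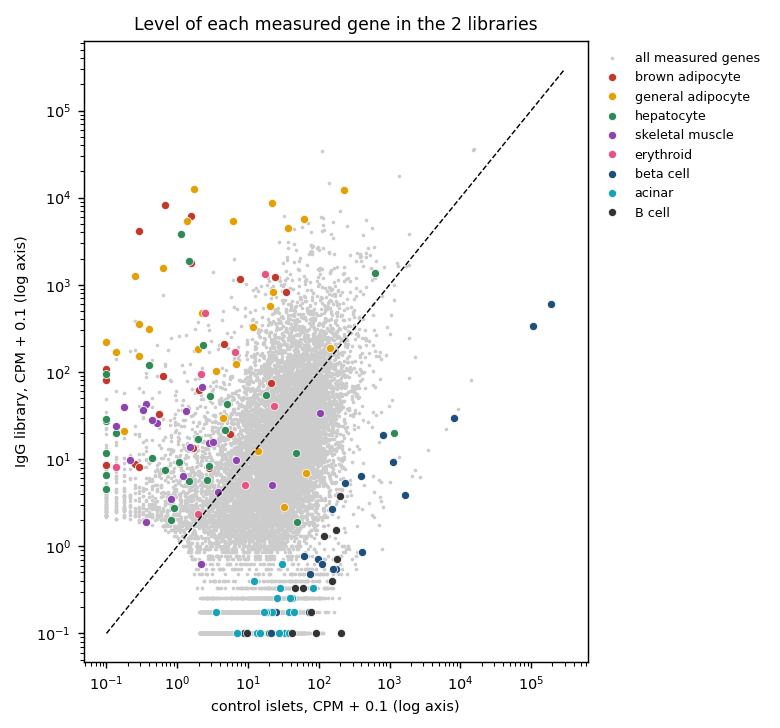
Level of each measured gene in the IgG library (vertical axis, CPM plus 0.1, log axis) against control islets (horizontal axis, same scale), 1 library per group, with list members coloured and the dashed line marking equal CPM. Brown and general adipocyte genes lie toward the upper left, beta cell, acinar and B cell genes toward the lower right, and hepatocyte, skeletal muscle and erythroid genes mostly above the line.

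The genes standing farthest above control islets were those of fat. At a mean CPM of at least 5 and without predicted genes, the 12 with the interval bound farthest from 1 were Ucp1, Cox8b, Car3, Adig, Cidea, Cfd, Apoc1, Cidec, Adrb3, Aspg, Hp and Cox7a1. Of these, 4 were on the general adipocyte list alone, 4 on the brown adipocyte list alone, Adrb3 on both, and Apoc1 and Hp on the hepatocyte list. Aspg, which encodes an asparaginase, was on no list and had 4 counts in control islets against 5127 with IgG. The 12 farthest below by the same rule were Ms4a1, Igha, Hvcn1, Pou2af1, Glycam1, Tm4sf4, Cd53, Pyy, Sez6l, Phactr1, Ptprc and G6pc2, genes of lymphocytes and lymph node together with islet genes such as Pyy, which encodes peptide YY, and G6pc2, a glucose-6-phosphatase of beta cells.

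Apart from predicted genes, the IgG library was led in CPM by genes of lipid and mitochondrial metabolism. The first was Lars2, a mitochondrial leucyl-tRNA synthetase whose count is uncertain because part of it resembles ribosomal RNA, at 36179 CPM with IgG against 15419 in control islets. Its call was lost under totals without the islet, acinar and fat lists. Next came the fatty acid desaturase gene Scd1 and Gpx3, a secreted glutathione peroxidase, at 17779.6 CPM against 1358 in control islets. Others among the 20 genes of highest CPM were Fasn, Car3, Lpl, Gpd1, Cox8b, Cox4i1, Cidea, Ndufa2, Uqcrh, Pnpla2, Atp5a1, Thrsp, Cfd, Tkt, Uqcr10 and Cox6a1. Counted per length, in TPM (length-scaled levels that sum to the same total in every library), Cox8b reached 35712 TPM and Ndufa2, a subunit of respiratory complex I, 16105 TPM in the IgG library.

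**Figure D2:**
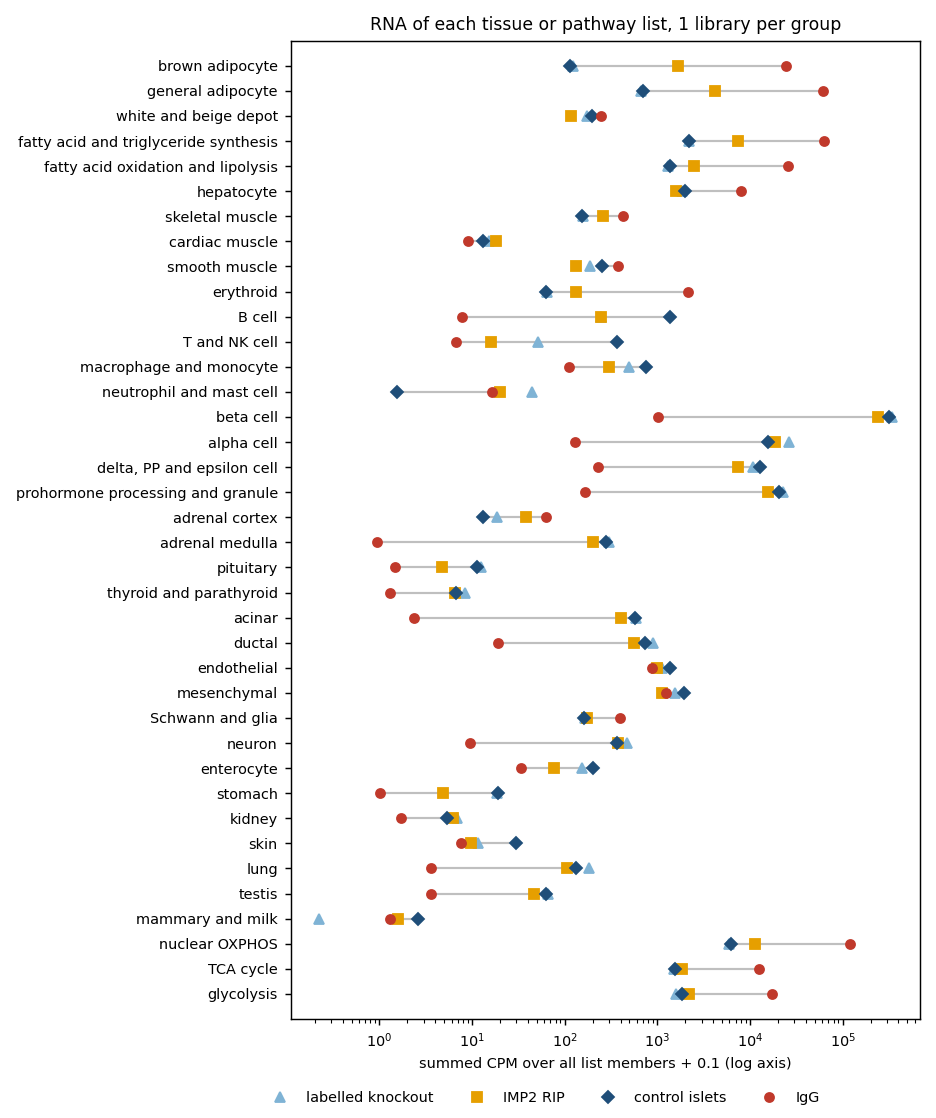
Summed CPM (plus 0.1, log axis) over all members of each tissue or pathway list in the 4 libraries, 1 point per library. Brown adipocyte genes summed to 114.4 CPM in control islets against 24695 with IgG, beta cell genes to 312418 and 1011, and the IMP2 RIP lay between the 2 libraries for both.

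The brown fat program was present in the IgG library at high level. Of 25 brown adipocyte genes, CPM was above control islets for 22 and below for 3. The 22 were all measured and all called higher. However, 10 of them were measured through the IgG library alone, so for those the filter fixed the direction in CPM. Their median log2 ratio was 6.82 (6.92 at the bound) beside -0.79 for all measured genes. Together the 25 genes held 2.47% of gene counts in the IgG library (95% interval 2.46% to 2.48%, exact Clopper-Pearson, counting error only).

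Ucp1 (ENSMUSG00000031710, mm10 chromosome 8, 83290352 to 83298452, plus strand), whose promoter is printed above, had 5 counts in control islets, 14 in the library labelled knockout, 1123 in the IMP2 RIP and 54374 in the IgG library. The scaled ratio of IgG over control was 40883 (95% interval 17518 to 125915). Cox8b, a subunit isoform of cytochrome c oxidase found in muscle and brown fat (ENSMUSG00000025488, chromosome 7, 140898945 to 140900446, minus strand), was read with 15, 31, 2604 and 109911 counts. Its ratio was 27547 (16701 to 49219), and both islet libraries stood under 2 CPM for both genes. Cidea, a lipid droplet protein of brown adipocytes, had 38, 32, 3085 and 81849 counts, a ratio of 8097 (5899 to 11443). Cox7a1, another cytochrome c oxidase isoform of heart, muscle and brown fat, had 38, 17, 512 and 23772 counts, a ratio of 2352 (1713 to 3324). In each of these 4 genes the IgG library was highest and the RIP second, and the islet libraries lay far below both.

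The receptor and effector genes of thermogenesis followed the same order. Adrb3, the beta-3 adrenergic receptor (ENSMUSG00000031489, chromosome 8, 27225776 to 27250616, minus strand), had 0 counts in control islets against 1 for the labelled knockout, 36 after the RIP and 2905 with IgG, at least 3640.3-fold higher than the limit that a count of 0 allows. Elovl3, a fatty acid elongase induced by cold, had 0, 0, 75 and 1425 counts, at least 1786-fold higher. Otop1, a proton channel, had 0, 0, 22 and 1057 counts, at least 1325-fold higher. Dio2, the deiodinase that makes active thyroid hormone in brown fat, had 12, 5, 67 and 436 counts, a ratio of 137 (77.4 to 266). Kcnk3, a potassium channel, stood at 1243 CPM against 24.2 in control islets, and Letmd1, a mitochondrial protein needed for brown fat thermogenesis, at 833 CPM against 34.5, so these genes were also read in control islets.

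The transcription factors and coactivators of the brown adipocyte had fewer reads, between 102 and 255 counts in the IgG library for those above 0. Prdm16, a transcriptional regulator of brown fat identity, had 144 counts in control islets against 255 with IgG, a ratio of 6.66 (5.41 to 8.22). Ppargc1a, the coactivator PGC-1 alpha, had 41 and 177 counts, a ratio of 16.2 (11.5 to 23.4), and Ppargc1b had 71 and 102, a ratio of 5.40 (3.95 to 7.42). Zic1, a factor known from brown rather than white fat, had 0 counts in control islets, 28 after the RIP and 113 with IgG, at least 142-fold higher. Lhx8 had 5 and 105 counts, and Ppara, the fatty acid receptor PPAR alpha, had 4 and 114. Against this pattern, Ebf2, a transcription factor of brown precursor cells, had 0 counts in the IgG library beside 21 in control islets and 49 in the RIP.

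Besides Ebf2, the IgG library was at 0 for Bmp8b and Cpt1b, with 4 and 7 counts in control islets. Of the exon bases of Cpt1b, the muscle and brown fat form of carnitine palmitoyltransferase, 81.4% are shared with another gene, where reads are not assigned to either.

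**Figure D3:**
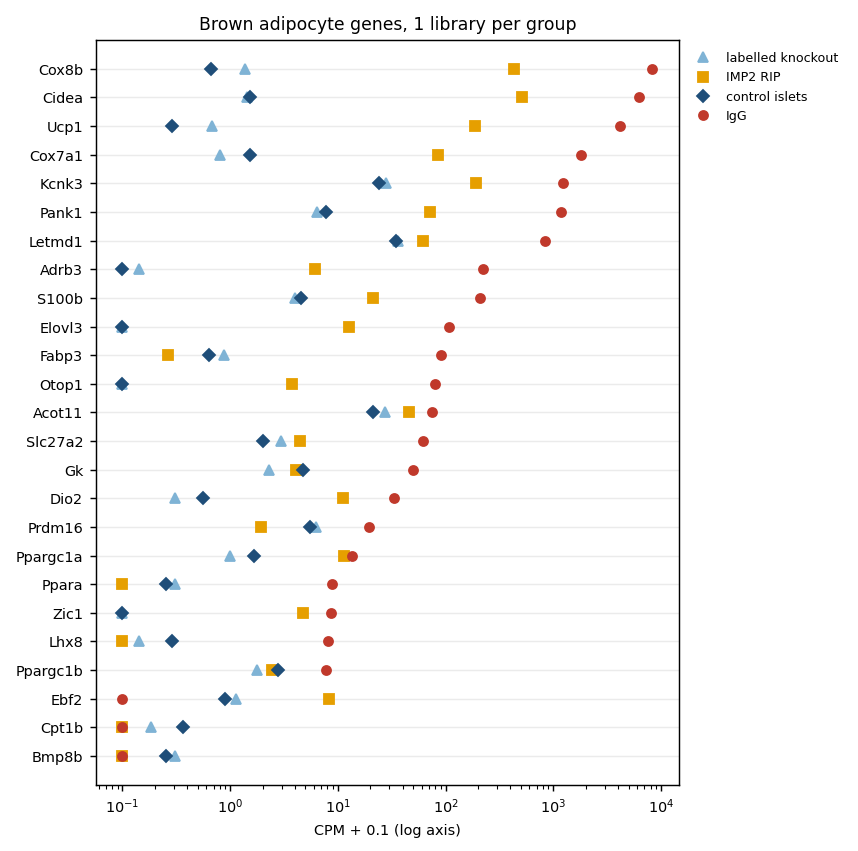
CPM (plus 0.1, log axis) of the 25 brown adipocyte genes in the 4 libraries, 1 point per library, ordered by their level in the IgG library. For 22 genes the IgG point lies to the right of control islets, and for Ebf2, Cpt1b and Bmp8b it lies at 0 counts.

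Genes common to white and brown adipocytes were also at high level. Of 29 general adipocyte genes the IgG library was above control islets in CPM for 25 and below for 4, and the list summed to 62053 CPM with IgG, against 4190 after the RIP, 664 for the labelled knockout and 695 for the control. Of 28 measured members, 25 were called higher, 2 lower and 1 was not called, 8 of them measured through the IgG library alone, with a median log2 ratio of 7.67 beside -0.79 for all genes. Among secreted products, Adipoq, which encodes adiponectin, had 5, 3, 182 and 4725 counts for the control, the labelled knockout, the RIP and IgG in turn. Cfd, which encodes the complement protease adipsin, had 33, 15, 1736 and 72050 counts. Retn, which encodes resistin, had 1, 0, 55 and 2253, and Lep, the leptin gene, had 2, 4, 21 and 278. All 4 were highest in the IgG library, but leptin lay at 9.70 TPM there while adipsin lay at 9141 TPM.

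Lipid droplet and lipid handling genes were high as well. Cidec, a lipid droplet protein, had a ratio of 5489 (3271 to 10041), and Plin4, which coats lipid droplets, of 1907 (967 to 4420). Adig, which encodes adipogenin, had 4 counts in control islets against 16580 with IgG, and Car3, a carbonic anhydrase, had 43 and 164894. Slc2a4, the insulin-responsive glucose transporter GLUT4, stood at 474 CPM against 2.13 in control islets. The adipocyte transcription factors were less far apart, with ratios of 52.7 for Cebpa (46.9 to 59.4) and 12.7 for Pparg (10.3 to 15.8). Nnat and Agt were the members called lower, at 5.24-fold (4.23 to 6.56) and 6.35-fold (4.55 to 9.12). Agt encodes angiotensinogen. Itih1 was at 0 in the IgG library.

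In a list of 9 further fat genes written after the values had been seen, each was higher in the IgG library. They included Plin5, a perilipin of oxidative tissues, with 4 and 2351 counts, Ucp3, a relative of Ucp1, with 6 and 779, and Nrg4, a factor secreted by brown fat, with 28 and 1572. The count of this list supports nothing, since it was chosen for those values.

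Markers of white and beige depots gave a mixed picture. Of 18 genes, 9 were at 0 in the IgG library, where 14105 of all 43629 genes were detected, and 1 was at 0 in control islets. In CPM 11 were lower with IgG than in control islets and 6 higher. Of 11 measured, 5 were called higher and 6 lower, beside 25.7% and 47.3% of all measured genes. Among those 11, 3 were measured through the IgG library alone and 5 through control islets alone. Members at 0 included the beige markers Tmem26, Tbx1 and Tnfrsf9, the visceral fat and mesothelial gene Wt1, and Hoxc9 and Hoxc10, which mark posterior depots. Hoxc8 was an exception, with 8 counts in control islets, 36 after the RIP and 119 with IgG, a ratio of 55.9 (27.5 to 133). Msln, a mesothelial gene, had 3084 counts in control islets against 2 with IgG. Apart from Lep and Retn, the members called higher were Hoxc8, Dpt at 4.49-fold and Cited1 at 2.39-fold (1.43 to 3.93). Cited1 was not called under library totals, and neither Cited1 nor Dpt under totals without the islet, acinar and fat lists.

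Lipid synthesis genes were among the largest shares of the IgG library. Of the 22 genes of fatty acid and triglyceride synthesis, each measured, 15 were called higher and 2 lower. They summed to 63612 CPM against 2210 in control islets, with a median log2 ratio of 4.22. The number called higher ranged from 13 to 18 over the other scalings. Scd1 (ENSMUSG00000037071, chromosome 19, 44394455 to 44407879, minus strand) had 2941, 760, 17295 and 450984 counts for the control, the labelled knockout, the RIP and IgG in turn. Its ratio was 576 (556 to 598). Fasn, fatty acid synthase, had a ratio of 198 (191 to 204), Acacb, an acetyl-CoA carboxylase, of 142 (127 to 160), and Dgat2, which makes triglyceride, of 850 (685 to 1070). The transcription factors that drive these enzymes were not called: the ratio was 1.297 for Srebf1 (1.21 to 1.39) and 0.841 for Mlxipl (0.808 to 0.875). Mlxipl was called lower under library totals and under totals without the islet, acinar and fat lists. The desaturases Fads1 and Fads2, which make long polyunsaturated fatty acids, were called lower at 6.27-fold (4.93 to 8.08) and 92.0-fold (16.4 to 3646), Fads2 on 1 count in the IgG library.

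Genes that release and burn fatty acids were higher too. Of 24 genes of fatty acid oxidation and lipolysis, 23 were measured, 21 called higher and 1 lower. Their median log2 ratio was 4.59, and the list summed to 25715 CPM against 1371. Under library totals 20 were called higher, and 19 under totals without the islet, acinar and fat lists. Pnpla2, the lipase ATGL that begins triglyceride breakdown, had a ratio of 178 (169 to 187), and Lipe, hormone-sensitive lipase, of 51.5 (47.2 to 56.3). In the mitochondrial pathway, Acaa2, a thiolase, had a ratio of 184 (174 to 195) and Hadhb, a subunit of the trifunctional protein, of 119 (108 to 132). The member called lower was Cpt1a, the liver form of carnitine palmitoyltransferase, at 8.42-fold (6.57 to 11.0).

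The respiratory chain took a large share of the library. Of 75 nuclear OXPHOS subunits, each measured, 73 were called higher and 2 lower, with a median log2 ratio of 4.70. Under library totals 71 were called higher, and 70 under totals without the islet, acinar and fat lists. The subunits held 11.98% of gene counts in the IgG library and 0.624% in control islets. Leading members in TPM were Ndufa2, then Uqcr10, a complex III subunit at 13380 TPM, and Atp5k, an ATP synthase subunit at 11479 TPM. Cycs, which encodes cytochrome c, had 115 counts in control islets against 6576 with IgG, a ratio of 215 (179 to 261). The 2 called lower were Atp5g1 at 3.70-fold (2.87 to 4.85) and Atp5g2 at 3.99-fold (1.48 to 15.1), both genes for the membrane ring subunit c of ATP synthase, while the third such gene, Atp5g3, had a ratio of 12.5 (12.1 to 12.9). These genes have near-identical copies elsewhere in the genome, so their counts are uncertain.

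All 18 genes of the citric acid cycle were called higher, with a median log2 ratio of 3.67, and 16 of them under library totals and under totals without the islet, acinar and fat lists. They ranged from 3.04-fold for Idh2 (2.88 to 3.21), which was not called under either of these, to 79.0-fold for Sucla2 (74.4 to 83.8), the ATP-forming subunit of succinyl-CoA synthetase. Its GTP-forming counterpart Suclg2 had a ratio of 6.66 (5.90 to 7.52). Glycolysis genes were closer to control islets, with 13 of 17 called higher, 2 lower and a median of 2.35. Under library totals 10 were called higher, and under totals without those lists 9. Ldha, lactate dehydrogenase A, had a ratio of 67.2 (64.9 to 69.7), whereas Slc2a1, the glucose transporter GLUT1, was 9.89-fold lower (6.04 to 17.4).

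Many of these pathways have isoforms whose use differs between tissues, and 18 such pairs were compared per length. The leading gene differed between the libraries in 10 of the 18 pairs. Some of these rest on a near tie in a single library. In control islets Acacb made up 49.8% of its pair with Acaca, and Slc25a4 49.0% of its pair with Slc25a5. In the IgG library Ppargc1b made up 48.8% of its pair with Ppargc1a. The mitochondrial uncoupling proteins were the clearest case: Ucp1 stood at 3888 TPM and Ucp2 at 5.84 in the IgG library, against 0.205 and 126 in control islets. Cox8b made up 90.7% of the sum of Cox8b and Cox8a in the IgG library and 0.661% in control islets. Cox7a1 made up 58.4% of its pair with Cox7a2 in the IgG library and 3.42% in control islets. In the remaining cytochrome c oxidase pair the order was the other way, since Cox6a2, which is also read in muscle and brown fat, made up 0.0240% of its pair with Cox6a1 in the IgG library and 51.9% in control islets. Cox6a2 had 3188 counts in control islets against 15 with IgG.

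Isoforms of glucose handling also differed in which gene led. Slc2a4 made up 99.9% of its pair with Slc2a2, the beta cell and liver transporter GLUT2, in the IgG library and 1.95% in control islets. Pck1, the cytosolic phosphoenolpyruvate carboxykinase, made up 98.6% of its pair with the mitochondrial Pck2 in the IgG library and 0.890% in control islets. GLUT2 is a marker of liver as well as of beta cells, and its gene had 6 counts in the IgG library.

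**Figure D4:**
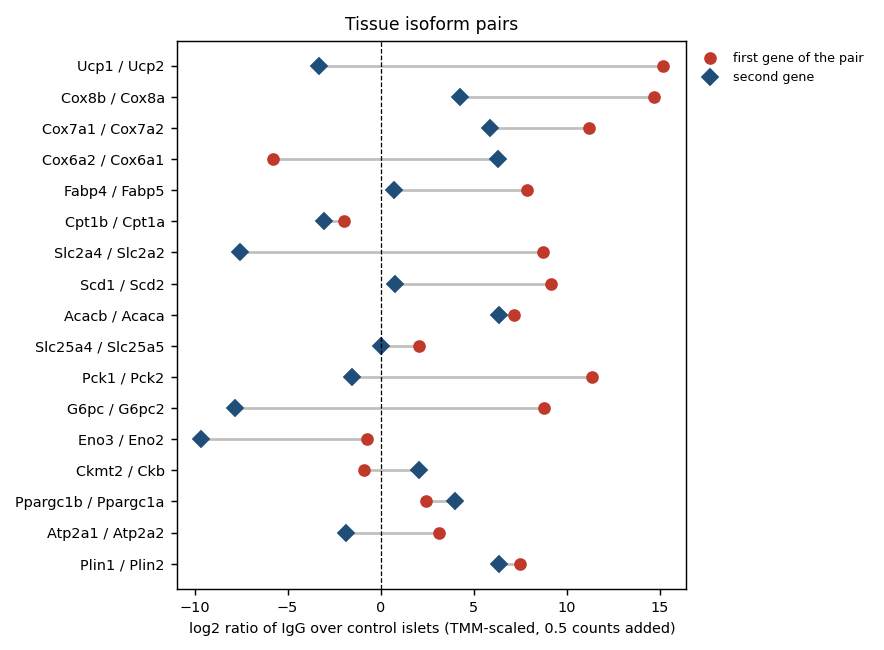
Log2 ratio of IgG over control islets (TMM-scaled, 0.5 counts added) for both genes of 17 of the 18 isoform pairs, with the first gene of each pair as a circle and the second as a diamond. Ucp1 lies at 15.18 and Ucp2 at -3.32, while Cox6a2 lies at -5.77 and Cox6a1 at 6.31.

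Liver genes divided into those at substantial level and those at 0. Of 40 hepatocyte genes, 27 had higher CPM in the IgG library than in control islets and 11 lower, and 10 were at 0 in the IgG library. Of 31 measured, 26 were called higher and 5 lower, with a median log2 ratio of 4.10 beside -0.79 for all genes. These counts and the median include 13 genes measured through the IgG library alone, whose direction the filter fixed. The list summed to 7893 CPM with IgG, against 1602 after the RIP, 1841 for the labelled knockout and 1967 for the control.

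The most abundant members were genes that adipocytes or macrophages also express. Apoc1, an apolipoprotein, had 27 counts in control islets against 25 for the labelled knockout, 1153 after the RIP and 50720 with IgG. Hp, which encodes haptoglobin, had 36, 34, 409 and 24474. C3, complement component 3, was at 626 CPM in control islets against 1384 with IgG. These 3 genes made up most of the summed level of the list in the IgG library.

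Genes more restricted to the hepatocyte were lower in level but read, some of them on low counts. Alb, which encodes albumin (ENSMUSG00000029368, chromosome 5, 90460897 to 90476602, plus strand), had 58 counts in control islets against 48 for the labelled knockout, 7 after the RIP and 2702 with IgG, a ratio of 175 (135 to 231). Ahsg, the plasma protein fetuin A (ENSMUSG00000022868, chromosome 16, 22891277 to 22899449, plus strand), had 0, 0, 0 and 1255 counts, at least 1573-fold higher. Hpd, a tyrosine-degrading enzyme, had 0, 1, 1 and 380, and Kng1, which encodes kininogen, had 0, 4, 0 and 358. The 3 fibrinogen chain genes Fga, Fgb and Fgg had 264, 134 and 153 counts in the IgG library, against 1, 9 and 0 in control islets and 0 each in the RIP. Cps1, the first enzyme of the urea cycle, had 15 and 98 counts in control islets and the IgG library.

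Afp, which encodes alpha-fetoprotein (ENSMUSG00000054932, chromosome 5, 90490737 to 90508907, plus strand), the fetal counterpart of albumin, had 18 counts in control islets against 5 for the labelled knockout, 0 after the RIP and 1072 with IgG. Its ratio was 224 (141 to 379). It lay at 37.2 TPM in the IgG library, beside 135 TPM for Alb. The promoters of both, printed above, hold the HNF1 half-site.

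Hepatocyte genes at 0 in the IgG library included several enzymes of the adult liver: Tat and Tdo2, which degrade tyrosine and tryptophan, Uox, urate oxidase, and the cytochrome P450 genes Cyp3a11 and Cyp2c29. Mup3 and Mup20, major urinary proteins, Ces1c and Serpina1c were also at 0. Cyp2e1, another cytochrome P450, was instead at 121 CPM with 1592 counts, against 8 counts in control islets. Tat had 513 counts in control islets and was at least 45.5-fold lower. Also called lower were Ttr, transthyretin, at 30.9-fold (27.4 to 35.0), Ambp at 14.2-fold (9.47 to 22.2) and Gc at 2.20-fold (1.86 to 2.62), of which Ttr and Gc are also alpha cell markers. Gc was not called under DESeq2 or upper-quartile scaling. Of those called higher, F2, Serpina1a and Serpina1d lost the call on estimated molecules (counts divided by an estimate of reads per molecule), and F2 and C3 lost it under totals without the islet, acinar and fat lists.

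Genes of fetal and imprinted growth were put in a list of 16 after values had been seen, so their counts are a description. H19, an imprinted noncoding RNA (ENSMUSG00000000031, chromosome 7, 142575529 to 142578143, minus strand), had 6, 15, 0 and 402 counts for the control, the labelled knockout, the RIP and IgG in turn. Its neighbour Igf2, a fetal growth factor, had 168, 133, 39 and 747, with 64.5% of its exon bases shared with another gene. Of 9 measured members, 6 were called higher, 2 lower and 1 was not called. Among the 9, 4 were measured through the IgG library alone and 2 through control islets alone. Some members did not follow H19 and Igf2. The embryonic globins Hbb-y and Hba-x and the fetal gene Lin28b were at 0 in the IgG library, Peg3 was 10.6-fold lower (9.64 to 11.7) and Mest had 180 and 1 counts.

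**Figure D5:**
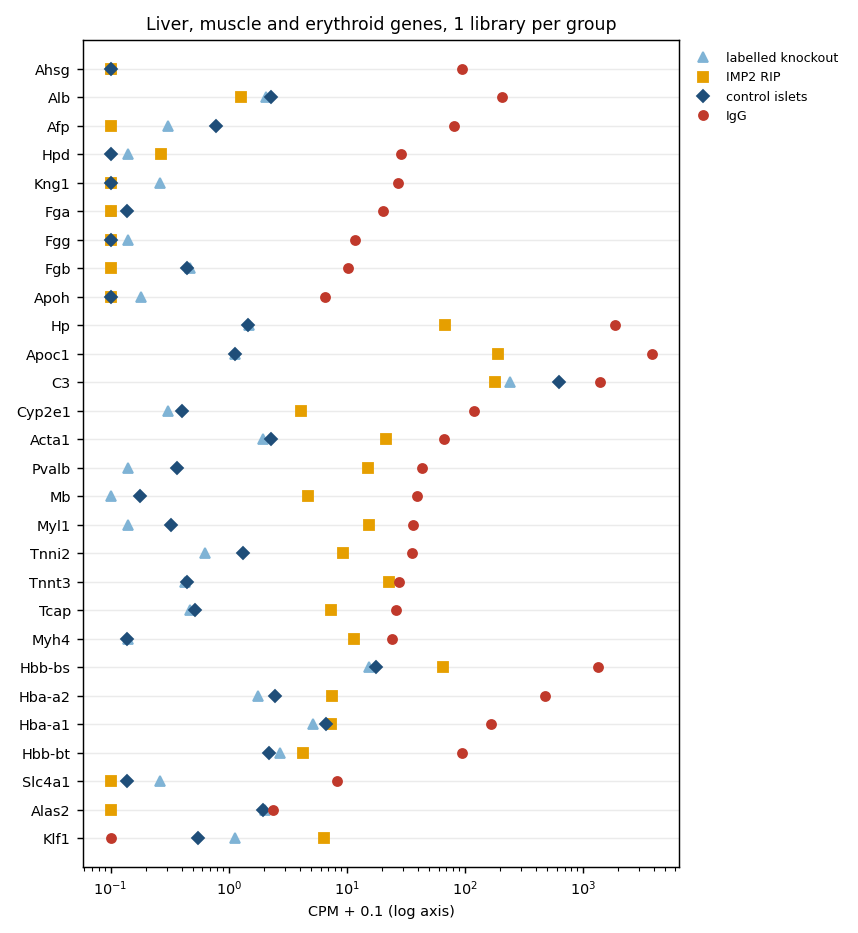
CPM (plus 0.1, log axis) of liver, skeletal muscle and erythroid genes in the 4 libraries, 1 point per library. Plasma protein genes such as Ahsg, Kng1 and Fga lie at 0 counts in the IMP2 RIP, whereas muscle genes such as Tnnt3 and Myh4 lie in the RIP between control islets and the IgG library.

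Skeletal muscle genes were present at modest level. Of 28 genes, 20 had higher CPM in the IgG library than in control islets, 5 had lower, and 5 were at 0 in the IgG library. The list summed to 421 CPM with IgG, against 256 after the RIP, 159 for the labelled knockout and 154 for the control. Of 20 measured, 17 were called higher, 1 lower and 2 were not called, with a median log2 ratio of 3.89. These counts and the median include 9 genes measured through the IgG library alone, whose direction the filter fixed. Under library totals 15 were called higher and 3 lower.

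Genes shared by skeletal fibres and genes of fast fibres were both read. Acta1, skeletal alpha actin (ENSMUSG00000031972, chromosome 8, 123891769 to 123894751, minus strand), had 57 counts in control islets against 45 for the labelled knockout, 129 after the RIP and 883 with IgG. Pvalb, the calcium buffer parvalbumin, had 7, 1, 91 and 568, and Myh4, the fast IIb myosin heavy chain, had 1, 1, 69 and 319. Tnnt3, fast troponin T, had 9, 8, 138 and 365. In all 4 the RIP lay above both islet libraries and below the IgG library. Mb, which encodes the oxygen store myoglobin, had 2 counts in control islets against 520 with IgG. Mybpc1, the slow-type myosin binding protein C, had 7 and 24. Of the other myosin heavy chains, Myh2 of fast IIa fibres and Myh7 of slow fibres were at 0, and Myh1 had 16 counts.

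The muscle genes at 0 besides Myh2 and Myh7 were Cacna1s, a calcium channel, Myod1, a regulator of muscle precursors, and Tnnc2, of whose exon bases 74.0% are shared with another gene. Ryr1, the calcium release channel, was called at 2.07-fold (1.46 to 2.92), but its log2 ratio was -0.20 under totals without the islet, acinar and fat lists and it was not called under library totals. Pygm, muscle glycogen phosphorylase, was not called under either. Neb, the lone member called lower at 2.32-fold (1.80 to 3.04), was not called under upper-quartile scaling, and Neb, Ryr1, Pygm and Mybpc1 were not called on estimated molecules.

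Cardiac and smooth muscle genes did not show the same shift. Of 14 cardiac genes 10 were at 0 in the IgG library, including Myh6, Actc1 and Nppa, and 3 were at 0 in control islets. The cardiac list summed to 8.94 CPM against 13.2 in control islets. The exceptions were Myl2 and Myl3, myosin light chains of heart and slow muscle, with 56 and 50 counts against 1 and 0. Of 10 measured smooth muscle genes, 3 were called higher, 2 lower and 5 were not called (25.7% higher and 47.3% lower over all measured genes). The split was 3 higher and 5 lower under totals without the islet, acinar and fat lists, and 5 and 1 under upper-quartile scaling. Des, which encodes desmin, had a ratio of 9.14 (8.53 to 9.78) and Cnn1, calponin, of 33.8 (21.01 to 57.6), while Myh11, smooth muscle myosin, was 2.71-fold lower (2.26 to 3.28) and not called under upper-quartile scaling.

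Blood was represented by globin and little else. The 4 adult globin genes Hba-a1, Hba-a2, Hbb-bs and Hbb-bt summed to 28.5 CPM in control islets against 24.6 for the labelled knockout, 84.5 after the RIP and 2080.3 with IgG. Hbb-bs, a beta globin (ENSMUSG00000052305, chromosome 7, 103826534 to 103828096, minus strand), had 462, 369, 395 and 17705 counts, a ratio of 144 (131 to 158). Hba-a2, an alpha globin, had 62, 41, 45 and 6283, a ratio of 381 (297 to 498). The alpha genes are near-identical copies, so their split is uncertain. Slc4a1, the band 3 anion exchanger of red cells, had 1 count in control islets and 107 in the IgG library.

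Other erythroid genes were at or near 0. Klf1, Rhag, Epb42 and Tspo2, genes of red cell precursors, had 0 counts in the IgG library. Alas2, the erythroid enzyme that begins heme synthesis, had 49 counts in control islets against 30 with IgG. Its call at 2.30-fold (1.41 to 3.70) was lost under library totals and on estimated molecules, and its log2 ratio was -0.05 under totals without the islet, acinar and fat lists. Bpgm was called at 3.31-fold (2.94 to 3.72) but not under library totals. Of 14 listed genes 13 were found in the files, 7 of 8 measured were called higher and 0 lower, 1 of them measured through the IgG library alone, and 5 were called higher under library totals.

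Lymphocyte genes were nearly missing from the IgG library. Each of the 12 B cell genes was called lower, beside 47.3% of all measured genes. Their median log2 ratio was -7.14 (-6.93 at the bound), and 9 were measured through control islets alone. They summed to 1356 CPM in control islets against 247 for the labelled knockout, 249 after the RIP and 7.73 with IgG. Ms4a1, which encodes CD20, had 5475 counts in control islets against 0 with IgG. Each of the 12 T and NK cell genes was also called lower, 9 of them measured through control islets alone, with 7 at 0, among them Cd3e, a T cell receptor subunit, and Lck, its kinase. Cd4 and Cd8a had 28 and 26 counts in the IgG library.

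Myeloid genes were mixed. Of 12 macrophage and monocyte genes 8 were called lower, 1 higher and 3 were not called, 3 of the 12 measured through control islets alone. The number called lower was 10 under library totals and 7 under upper-quartile scaling. Lyz2, lysozyme, was 13.5-fold lower (11.6 to 15.7) and Csf1r, the macrophage growth factor receptor, 8.0001-fold lower (6.09 to 10.7). Mrc1, the mannose receptor CD206, was higher at 5.72-fold (4.22 to 7.79), and C1qc had a ratio of 0.934 (0.816 to 1.07), called lower under library totals and under totals without the islet, acinar and fat lists. Of 12 neutrophil and mast cell genes 7 were at 0 in the IgG library. Cma1, Tpsb2 and Mcpt4, proteases of mast cells, had 83, 50 and 27 counts there against 1, 0 and 0 in control islets, while Cpa3, another mast cell gene, was at 0.

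Beta cell and islet hormone genes were far lower in the IgG library than in control islets. The beta cell list still summed to 1011 CPM with IgG, against 421 CPM there for the skeletal muscle list. All 22 beta cell genes were called lower, 13 of them measured through control islets alone, with a median log2 ratio of -7.05 (-6.75 at the bound) beside -0.79 for all genes. Ins2 (ENSMUSG00000000215, chromosome 7, 142678656 to 142743381, minus strand) had 5050698 counts in control islets against 4951925 for the labelled knockout, 867802 after the RIP and 7868 with IgG, 171-fold lower than control islets (167 to 175). Iapp, islet amyloid polypeptide, was 144-fold lower (130 to 159), and Ins1 170-fold (165 to 175). Ins1 and Ins2 are close copies, so their split is uncertain. The hormone genes of other islet cells were lower by similar factors: Gcg, glucagon, by 92.1-fold (86.7 to 97.9), Sst, somatostatin, by 146-fold (126 to 171), and Ppy, pancreatic polypeptide, by 154-fold (137 to 173). Beta cell genes at 0 in the IgG library were Kcnj11, Ffar1 and Glp1r, and the factors Neurod1 and Mafa had 1 count each, against 1945 and 661 in control islets.

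Prohormone processing and granule genes were called lower in 15 of 15 cases, 5 of them measured through control islets alone, with a median of -7.05. Chga, chromogranin A, was 133-fold lower (122 to 145) and Pcsk2, a prohormone convertase, 177-fold (143 to 223). Cpe, carboxypeptidase E, was 11.7-fold lower (11.0 to 12.4) and kept the highest count of the list in the IgG library, 1114. Within the alpha, delta, PP and epsilon lists 1 gene was called higher, Rbp4, which encodes the retinol carrier made by liver and fat and which is also on the general adipocyte list, at 2.47-fold (2.34 to 2.60). It was not called under library totals, under totals without the islet, acinar and fat lists, or against the labelled knockout.

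Other endocrine glands were close to unread. In the IgG library 8 of 10 adrenal cortex genes were at 0, including the steroid-making Star, Cyp11a1 and Cyp11b1. So were 5 of 7 adrenal medulla genes, 8 of 9 pituitary genes and 7 of 8 thyroid and parathyroid genes. Control islets had 6, 1, 5 and 2 at 0 in the same order. Of all 43629 genes in the files 14105 were detected in the IgG library, so a count of 0 there was the common case. The exceptions were few. Fdx1, an electron carrier of mitochondria that is not limited to steroid-making cells, was at 61.7 CPM against 7.32 in control islets. Mc2r, the corticotropin receptor, had 23 counts and Tshr, the thyrotropin receptor, had 16, against 0 and 2 in control islets. Mrap, the accessory protein of the corticotropin receptor and a member of the general adipocyte list, had 2003 counts against 5.

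The exocrine pancreas was close to unread as well. All 21 measured acinar genes were called lower and reached the limit through control islets alone, and the 26 genes summed to 2.27 CPM with IgG against 573 in control islets. Ductal genes summed to 18.9 and 744 CPM, with 10 of 11 measured called lower and 8 of the 11 measured through control islets alone. Epcam, an epithelial adhesion gene, had 2351 counts in control islets against 0 with IgG, and Krt8, a keratin of simple epithelia, had 2399 and 2.

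Vessel and stroma genes were read in both libraries. Endothelial genes summed to 868 CPM with IgG against 1369 in control islets, with a median of -0.32 beside -0.79 for all genes. Of 13, 4 were called higher and 5 lower, where 25.7% and 47.3% of all measured genes were. Under library totals 2 were higher and 7 lower, and under upper-quartile scaling 6 and 2. Single members stood apart. Gpihbp1, which carries lipoprotein lipase to the capillary surface, had 444 counts in control islets against 1920 with IgG, a ratio of 16.3 (14.7 to 18.1). Its partner Lpl, lipoprotein lipase, was at 230 and 12376 CPM. Plvap, which forms the diaphragms of fenestrated capillaries such as those of islets, had 7917 and 30 counts, 70.2-fold lower (49.1 to 104). Mesenchymal genes had 3 of 13 called higher, 2 lower and a median of 0.27, but 1 higher and 6 lower under totals without the islet, acinar and fat lists. Rgs5, a pericyte gene, had a ratio of 1.003 (0.951 to 1.06) and was called lower under those totals, and Col3a1 was 3.68-fold lower (3.34 to 4.06).

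Schwann cell genes split within the list. Of 9 genes, 4 were called higher and 5 lower (25.7% and 47.3% over all measured genes). Pmp22, a myelin gene, had a ratio of 5.15 (4.70 to 5.66), and S100b, also on the brown adipocyte list, of 88.2 (73.3 to 107). Sox10, Gfap, Cdh19 and Prx were at 0 in the IgG library. Each of the 9 measured neuron genes was called lower, 6 of them measured through control islets alone. Genes of stomach, kidney, skin, lung, testis and milk summed to between 0.909 and 7.58 CPM per list in the IgG library, and those of enterocytes to 33.6 CPM, of which Lgals4 held 409 counts.

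The family of the immunoprecipitated protein was also read. Igf2bp2, which encodes IMP2, stood at 9.68 CPM in control islets against 34.7 with IgG, a ratio of 6.75 (5.78 to 7.90). Igf2bp1, a paralog of fetal tissues, had 9 and 523 counts, a ratio of 218 (114 to 480), and Igf2bp3 had 32 and 69, a ratio of 8.11 (5.26 to 12.7). Igf2bp1 was measured through the IgG library alone.

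Sex-linked genes differed in both directions. Xist, the noncoding RNA of the inactive X chromosome, had 15804 counts in control islets against 18166 for the labelled knockout, 3803 after the RIP and 27 with IgG, 156-fold lower than in control islets (107 to 236). Of the Y chromosome genes, Ddx3y had 51, 0, 33 and 351 counts and Eif2s3y had 50, 0, 1 and 338. Uty had 90 counts in the IgG library and 0 in the others. Kdm5d, another Y gene, had 23, 1, 11 and 1. Ddx3y, Eif2s3y and Uty were thus highest in the IgG library and Kdm5d was not.

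The same genes were not at one level in the RIP relative to the IgG library. These groups were chosen after the values were seen, and are given as descriptions. For 14 fat genes the summed CPM of the RIP was 5.31% of that of the IgG library, with single genes between 2.71% and 11.5%. Brown adipocyte genes outside the 14 lay beyond that range on both sides. Fabp3 stood at 0.184%, with 1 count in the RIP and 1193 with IgG, while Dio2, whose counts are given above, stood over the range. For the 4 globin genes it was 4.06%. For 11 plasma protein genes it was 1.59%, with single genes between 0% and 32.5% and 8 of the 11 at 0 in the RIP. A count of 0 in the RIP allows up to 0.498 CPM. The full hepatocyte list stood at 1602 CPM in the RIP against 7893 with IgG. Control islets held 1967 CPM of that list and the labelled knockout 1841, so the RIP was not above the islet libraries. Hp and Apoc1, left out of the group of 11, had 409 and 1153 counts in the RIP. For 8 skeletal muscle genes the summed CPM of the RIP was 35.8% of that of the IgG library, with single genes between 11.8% and 82.8%. The full skeletal muscle list stood at 256 CPM in the RIP against 421 with IgG. Of 53 genes with at least 50 CPM in the IgG library and at most 2 in control islets, the median gene stood in the RIP at 5.28% of its IgG level, 3 were at 0 and the highest was at 26.2%.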

How the data were processed

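The authors deposited read counts for 43629 genes per library, followed by entries for unassigned reads. STAR, HTSeq and the mm10 build are named in the submitters' processing notes. Versions, annotation release and strand option: not given in the sources used here. Overlapping and antisense genes may therefore share reads. Unassigned reads (50.8% of the file total for the control, 70.5% for IgG, of which reads aligned more than once were 30.7% and 48.2% of the file total) stayed out of library sizes.

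Computed here: CPM over gene counts, TPM over the merged exon length in GENCODE M21, which matched 42548 of 43629 identifiers, and TMM scaling with edgeR 4.0.16 under R 4.3.3. The mean CPM limit was 1, the fold limit 2, the interval exact Clopper-Pearson at 95% on the IgG count out of both, and 0.5 counts were added for log2 values. Folds against a count of 0 are bounds at 3 counts. Intervals cover counting error only, since reads lacking molecular identifiers can be copies of one molecule. Calling was tried on simulated counts: of genes changed 4-fold, 100.0% were called in each direction, and 0.154% of unchanged genes were called, among 15807 measured. Both simulated libraries were drawn from the control islet means, with counting error only and few genes changed. In the real pair 73.0% of genes were called, so these rates check the calculation and do not measure error in this comparison. Alternatives used library totals with and without the islet, acinar and fat lists (and Gm42418, which overlaps ribosomal RNA), DESeq2 1.42.0 and upper-quartile scaling, other filters, a fold limit of 4, estimated molecules (21 reads each in the IgG library, the median over 121 genes) and the library labelled knockout. Calls of every list and named gene under the scalings were added after the data were seen. Promoters came from RefSeq. Scripts ran under Python 3.11.15 (pandas 2.3.3, SciPy 1.17.1, NumPy 2.4.6, Matplotlib 3.10.9).

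The 2 libraries, the gene lists and the rules were chosen with earlier results of these data known. The named genes are the IMP family, the 12 called higher and 12 lower with the interval bound farthest from 1 (mean CPM 5 or more) and the 20 with the highest IgG CPM (without predicted genes, RIKEN clones, pseudogenes and immunoglobulin variable segments), the isoform pairs, Xist and Y genes, and of each list the defining markers, the up to 6 most abundant, the up to 3 with the highest and 3 with the lowest ratio, and those at 0. Others, and 2 lists (fetal and imprinted growth, further fat genes), were chosen after their values were seen. Some genes are not reported here.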

Additional observations from a re-analysis of the deposited data

Results flagged for a closer look

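Genes of other tissues were also read in the IMP2 RIP, a library outside the comparison of IgG with control islets, above their level in both islet libraries. The 14 fat genes summed to 2249 CPM in the RIP, against 9.30 in control islets and 8.03 in the library labelled knockout. The 4 adult globin genes summed to 84.5 CPM in the RIP, against 28.5 and 24.6. The 8 skeletal muscle genes summed to 107 CPM in the RIP, against 4.74 and 3.21. A group of 11 plasma protein genes stood at 8.30 CPM in the RIP against 9.72 and 7.79. Outside this group, Hp had 409 counts in the RIP and 36 in control islets, Apoc1 1153 and 27, and Orm1 146 and 3. Hp and Apoc1 are genes that adipocytes or macrophages also express, so they do not mark liver alone. In CPM the RIP stood at 3.66% of the IgG level for Hp, 4.98% for Apoc1 and 14.1% for Orm1. These groups were chosen after the values were seen, and no difference was tested.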

How the results depend on the processing

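The counts of genes called and the list counts gave 9 results, recomputed under 9 alternatives. Of these 81 values, 77 stayed within 1.5 times the reported count and 4 did not. Genes called higher fell from 3943 to 2577 under library totals, 2180 under totals without the islet, acinar and fat lists and 2474 at a fold limit of 4. Genes called lower fell from 7268 to 3963 on estimated molecules, where the other direction gave 3405. Of 1697 values for 220 named genes, 1640 kept their direction and call, 35 lost the call, 20 gained it and 2 reversed: Alas2 at -0.046 and Ryr1 at -0.20 (log2), both under totals without those lists. No paired analysis was possible because each group has 1 library, and for the same reason no replicate could be left out. Depth limits genes under 3 counts, and low IgG counts may rest on few molecules.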
